A study of Mus musculus with 8 samples.

Results

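The genes described here are 10 genes of prostanoid synthesis and response: the cyclooxygenases Ptgs1 and Ptgs2, the terminal synthases Ptges, Ptgds, Hpgds and Tbxas1, and the receptors Ptger2, Ptger4, Ptgir and Ptgdr2. They were chosen by gene symbol from the 38392 genes of the deposited expression table, and each symbol occurred once. RNA was sequenced from eosinophils sorted from female wildtype C57/BL6 mice, in 4 libraries from bone marrow (BM_1, BM_3, BM_4 and BM_5) and 4 from small intestine (SI_6, SI_7, SI_10 and SI_11). Bone marrow cells were flushed from leg bones, freed of red cells and sorted as CD11b+ Ly6G- Ly6C- SiglecF+ SSChi. Small intestinal cells were sorted as CD11b+ MHC-II- SiglecF+ SSChi, after the epithelium had been stripped, the remaining tissue had been digested with enzymes at 37°C and CD11b+ cells had been enriched on beads. Tissue, gate and handling therefore cannot be told apart in any comparison below. By the study's methods the libraries of a tissue came from separate mice, while the labels do not tie the tissues of a mouse to each other.

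Prostanoids are short-lived lipid signals made from arachidonic acid. A phospholipase frees arachidonic acid from membranes, a cyclooxygenase converts it to prostaglandin H2, and a terminal synthase turns that intermediate into prostaglandin E2, prostaglandin D2, prostacyclin or thromboxane A2, each of which acts on its own G protein-coupled receptors. Eosinophils are granulocytes known for making lipid mediators and for migrating towards prostaglandin D2, and in the gut prostaglandin E2 and prostacyclin are known for supporting the mucosa.

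Markers of several cell types differed between the tissues, and for bone marrow they went partly against the label. A list of 6 eosinophil markers summed to between 2420.0 and 3680 normalised counts (reads divided by the library's size factor) in bone marrow, against 33391 to 46078 in small intestine, with none of the 6 at 0 in either tissue. Siglecf, the protein used in both sorts, had a bone marrow mean of 579.9 normalised counts and a small intestine mean of 3076, and Ccr3, the eotaxin receptor, had 70.9 and 16351. The granule protein genes Epx and Prg2 went the other way, from 349.9 to 20.6 and from 1831 to 147. In the same bone marrow libraries 10 neutrophil precursor markers, led by Mpo and Elane, summed to between 323043 and 411749 normalised counts, against 487 to 592 in small intestine, and 9 of the 10 were lower in small intestine. Macrophage and dendritic markers, led by Itgax and Adgre1, summed to 743 to 859.5 in bone marrow and 28508 to 35062 in small intestine (9 of 10 higher). Those leading genes, which eosinophils can also express, carried most of that sum, and without them the other 8 markers summed to 552 to 671 and 2173 to 5580. The 10 epithelial markers, led by Muc2 and Cdh1, summed to 67.9 to 153 and 4531 to 30706 (9 of 10 higher). Endothelial markers, led by Vwf and Cdh5, summed to 9.19 to 82.7 and 397 to 502 (6 of 6 higher). All 15 genes of a list that responds to tissue dissociation, led by Dusp1 and Zfp36, were higher in small intestine, with sums of 1197 to 1593 in bone marrow and 97604 to 130329 in small intestine. Depth lay between 11508002 and 21289164 reads in genes per library. In these bulk libraries fewer cells of a type and less RNA per cell cannot be told apart, and the part of the other cell types and of handling in the differences below was not tested.

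Of the 10 prostanoid genes, 4 were higher in small intestine (Ptgs2, Tbxas1, Ptger4 and Ptgdr2), 4 were lower (Ptgs1, Ptges, Ptger2 and Ptgir) and 2 did not pass the test (Ptgds and Hpgds), by limma on the deposited log2-like values with Benjamini-Hochberg adjustment over all genes and a threshold of 0.05. The libraries of the tissues did not overlap for 9 of the 10, all but Ptgds. As a background, 34.9% of all genes were called, 22.0% as higher and 12.9% as lower, and the libraries did not overlap for 34.3%. Among genes that averaged 10 reads or more, as 9 of the 10 prostanoid genes did, 63.1% were called. The share without overlap was not computed among those genes, so 34.3% is no matched background for the prostanoid genes. The median difference of the 10 genes, small intestine minus bone marrow, was -0.14, against 0.37 over all genes. Their median absolute difference was 1.74, against 0.73 over all genes and 1.14 over the genes averaging 10 reads or more. Both enzymes and receptors thus held members that rose and members that fell.

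**Figure D1:**
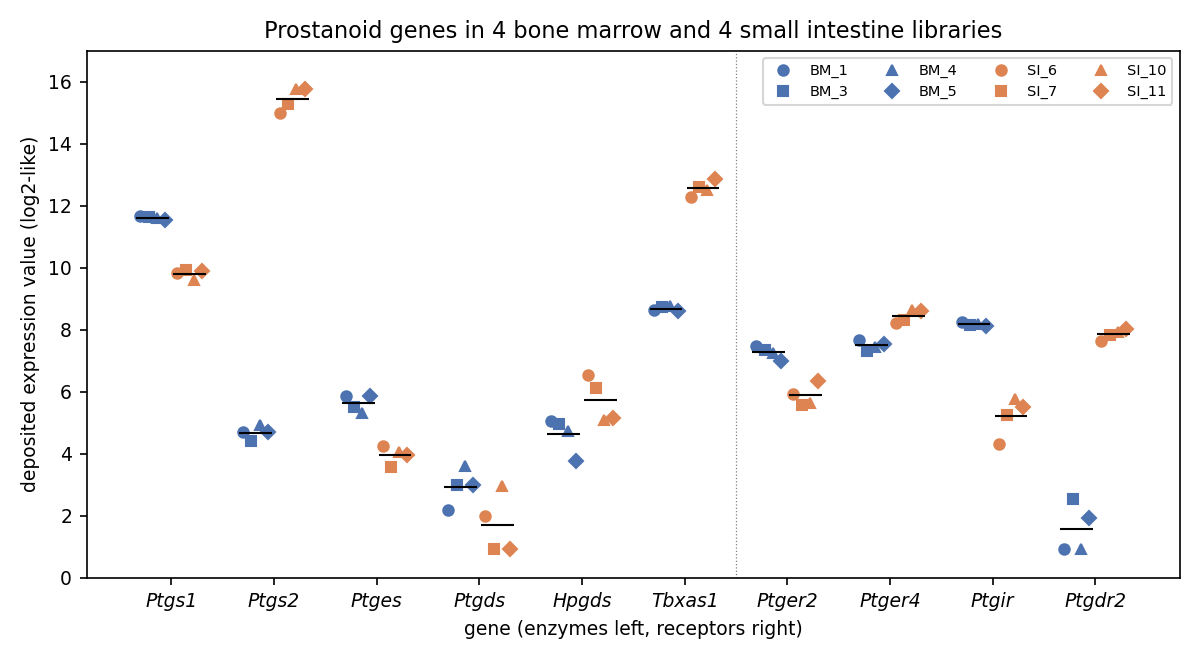
Deposited log2-like expression values (vertical axis) of the 10 prostanoid genes (horizontal axis, enzymes left and receptors right of the dotted line) in 4 bone marrow libraries (blue) and 4 small intestine libraries (orange), with the mean of each tissue as a black line. The libraries of the tissues overlap for Ptgds alone, and the gap between them is widest for Ptgs2.

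**Figure D2:**
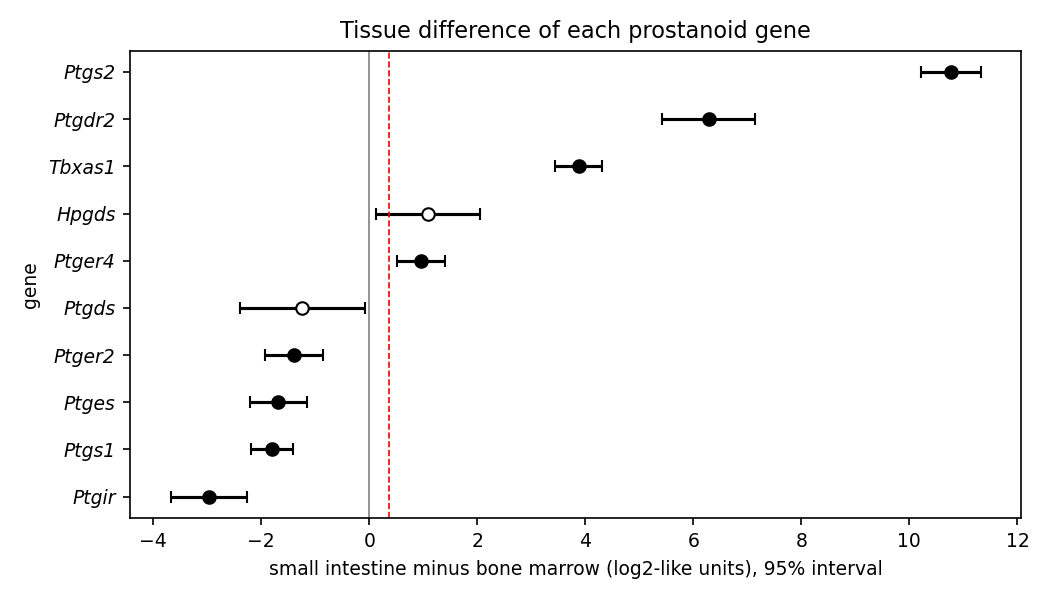
Difference of the deposited value, small intestine minus bone marrow (horizontal axis, log2-like units), for each of the 10 genes (vertical axis) with its 95% interval from limma. Filled points passed an adjusted p of 0.05, open points did not, and the dashed red line is the median of all genes at 0.37.

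Ptgs1 and Ptgs2 encode the enzymes of the first committed step, and they changed places between the tissues. Ptgs1 (ENSMUSG00000047250, chr2:36230426-36252272, plus strand of GRCm38) encodes cyclooxygenase-1, which many cell types make constitutively. It had 3220.2, 3158, 3081 and 3000.1 normalised counts in BM_1, BM_3, BM_4 and BM_5, and 906, 962, 773 and 947 in SI_6, SI_7, SI_10 and SI_11. Every bone marrow library was above every small intestine library, and the 4 bone marrow values lay close together. The means were 3115 ± 95.3 and 897 ± 85.9 (SD, n = 4), a level 3.47-fold lower in small intestine, and the difference was -1.80 ± 0.17 (SE; limma adjusted p = 8.31e-05).

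Ptgs2 (ENSMUSG00000032487, chr1:150100031-150108227, plus strand) encodes cyclooxygenase-2, the inducible form, which cells make in response to cytokines, growth factors and stress. It had 22.2, 17.6, 26.8 and 22.3 normalised counts in the bone marrow libraries, from 29, 27, 28 and 24 reads. In small intestine it had 32649 in SI_6, 39480.3 in SI_7, 56026 in SI_10 and 55544 in SI_11. The libraries of the tissues were far apart, and each tissue's values lay close together beside that gap. The means were 22.2 ± 3.75 and 45925 ± 11724 (SD, n = 4), a 2066-fold higher level in small intestine, and the difference was 10.77 ± 0.24 (SE; limma adjusted p = 1.122e-07). Per kb of exon Ptgs2 ranked 26 of the 20623 protein-coding genes in small intestine and 10709 in bone marrow, whereas Ptgs1 ranked 430 in bone marrow and 2171 in small intestine. Ptgs2 is itself known to be induced rapidly in handled cells, and the dissociation list moved with it. Within small intestine, SI_10 and SI_11 were high for Ptgs2 and SI_6 was low.

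The ratio of both enzymes was also taken within each library, per kb of exon. Per kb, Ptgs1 stood 169 ± 31.8 times above Ptgs2 in bone marrow (SD, n = 4), with 171, 212, 136 and 159 in BM_1, BM_3, BM_4 and BM_5. In small intestine Ptgs2 stood 44.1 ± 14.2 times above Ptgs1, with 30.6, 34.8, 61.4 and 49.7 in SI_6, SI_7, SI_10 and SI_11. The order of the pair was thus opposite in the tissues in every library, and a ratio within a library does not depend on the scaling between libraries.

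The start regions of this pair and of Tbxas1 are shown. Of the summed reads per kb of the 10 genes, Ptgs1 held the largest share in bone marrow and Ptgs2 in small intestine. Tbxas1 came next after Ptgs2 in small intestine. All 3 are read from RefSeq windows on GRCm38.p6 and run from 150 bases before the RefSeq start to 30 after it, 5′ to 3′. Capitals mark matches, on either strand, to the words searched for: the cAMP response element (TGACGTCA) and its shorter core TGACG, AP-1 (TGANTCA), the xenobiotic response element core (GCGTG), the NF-kappaB word, a GATA site (GATAAG), C/EBP (TTGCNNAA) and the TATA box (TATAAA). A word that holds TGACGTCA also holds the core on both strands.
Ptgs1 promoter, chr2:36230276-36230455, plus strand: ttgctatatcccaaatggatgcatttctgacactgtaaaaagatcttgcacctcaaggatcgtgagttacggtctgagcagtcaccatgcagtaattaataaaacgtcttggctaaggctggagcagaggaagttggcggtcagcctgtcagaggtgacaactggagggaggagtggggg
Ptgs2 promoter, chr1:150099881-150100060, plus strand: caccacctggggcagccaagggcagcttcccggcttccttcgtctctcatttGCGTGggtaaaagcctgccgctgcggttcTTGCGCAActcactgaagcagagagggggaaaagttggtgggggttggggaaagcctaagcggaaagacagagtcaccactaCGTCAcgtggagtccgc
Tbxas1 promoter, chr6:38918836-38919015, plus strand: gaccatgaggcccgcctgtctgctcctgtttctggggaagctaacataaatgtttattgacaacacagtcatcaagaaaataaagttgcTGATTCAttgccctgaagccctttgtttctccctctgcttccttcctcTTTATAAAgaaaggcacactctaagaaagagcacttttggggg
The Ptgs2 window held GCGTG at position -98, TTGCGCAA at -69 and the shorter core, read on the opposite strand as CGTCA, at 14 after the start. The Tbxas1 window held TGATTCA at -61 and TATAAA at -11, which overlaps a match on the opposite strand at -13. The RefSeq start of Tbxas1, base 38918986, lies inside the gene, which begins at base 38875404 in the annotation. That of Ptges, base 30903297, also lies inside its gene (30889471-30929863, minus strand). So do those of Ptgds, base 25469749 (gene 25466709-25470046), and Hpgds, base 65144730 (gene 65117293-65144908), both on the minus strand. Which start these cells used was not tested. The Ptgs1 window held none of the 8 words, also when extended to the full 300 bases from 250 before the start to 50 after it. A full window was at hand for all 10 genes, and 4 of them (Ptgs1, Ptgir, Ptger4 and Ptgdr2) held none of the words. C/EBP was found in 3 windows (Ptgs2, Hpgds and Ptger2), AP-1 in 2 (Ptgds and Tbxas1), GCGTG in 2 (Ptgs2 and Ptges), the shorter core in 1 and the TATA box in 1. The whole cAMP response element, the NF-kappaB word and the GATA site were found in 0 of the 10. Over all 32851 RefSeq windows the shares were 10.8% for C/EBP, 7.81% for AP-1, 32.4% for GCGTG, 20.8% for the shorter core, 13.6% for the TATA box, 1.79% for the whole element, 1.47% for NF-kappaB and 7.44% for GATA. A match is a run of letters and not an occupied site.

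Among the terminal synthases, thromboxane synthase rose, the inducible prostaglandin E synthase fell, and the synthases of prostaglandin D2 did not pass the test. Tbxas1 (ENSMUSG00000029925, chr6:38875404-39084585, plus strand) encodes the enzyme that makes thromboxane A2, known for platelet aggregation and smooth muscle contraction. It had 394, 422, 428 and 389.5 normalised counts in the bone marrow libraries and 5031, 6214, 5782 and 7402 in SI_6, SI_7, SI_10 and SI_11. The spread within each tissue was small beside the gap between them. The means were 408 ± 19.4 and 6107 ± 992 (SD, n = 4), 15.0-fold higher in small intestine, and the difference was 3.88 ± 0.19 (SE; limma adjusted p = 2.527e-06). Tbxas1 is also known from macrophages and platelets. Beside it, the macrophage and dendritic list was higher as given above, and 9 megakaryocyte and platelet markers, led by Ppbp and Itga2b, summed to 169 to 310.0 in bone marrow and 834 to 1161 in small intestine, with 2 of the 9 higher, 1 lower and none at 0.

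Ptges (ENSMUSG00000050737, chr2:30889471-30929863, minus strand) encodes the microsomal prostaglandin E synthase that is often induced along with Ptgs2. Here it went the other way. It had 55.2, 41.7, 36.4 and 53.9 normalised counts in BM_1, BM_3, BM_4 and BM_5, and 15.3, 8.32, 13.1 and 11.8 in SI_6, SI_7, SI_10 and SI_11, with no overlap. The means were 46.8 ± 9.22 and 12.2 ± 2.92 (SD, n = 4), 3.85-fold lower in small intestine, and the difference was -1.69 ± 0.23 (SE; limma adjusted p = 0.0006004).

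Hpgds (ENSMUSG00000029919, chr6:65117293-65144908, minus strand) encodes the hematopoietic prostaglandin D synthase of mast cells and other leukocytes. It had 29.9, 27.4, 23.0 and 10.2 normalised counts in bone marrow and 89.5, 65.2, 30.6 and 32.0 in small intestine. BM_5 was low among the bone marrow libraries, SI_6 and SI_7 were high among those of small intestine, and the tissues were separated by 0.03 on the deposited scale. The means were 22.6 ± 8.74 and 54.3 ± 28.4 (SD, n = 4), and the difference of 1.09 ± 0.42 (SE; 95% interval 0.13 to 2.05) did not pass the test (limma adjusted p = 0.07854). Without BM_5, SI_6 and SI_7, a setting chosen after seeing the data, the difference was 0.21 (limma adjusted p = 0.302), but these are the lowest bone marrow library and the highest small intestine libraries for Hpgds, so that a smaller value follows from the choice. The order of the small intestine libraries for Hpgds (SI_6, SI_7, SI_11, SI_10 from the highest) was also that of the epithelial list, with sums of 30706, 14312, 4985 and 4531. It was also that of 10 fibroblast and smooth muscle markers, led by Myh11 and Acta2, with sums of 2273, 1498, 969.6 and 808 against 29.7 to 146 in bone marrow (9 of 10 higher, none at 0). The 8 macrophage and dendritic markers other than Itgax and Adgre1 also had that order, from 5580 in SI_6 to 2173 in SI_10. Among them, H2-Aa had 3148, 2162, 965 and 434 in it. The sum of all 10 did not have it. The mast cell protease Mcpt1 had it at low counts (16.4, 8.32, 7.11 and 3.28), while the sum of the mast cell and basophil list had the reverse. For Ptgs2, Ptgir and Ptger4 the order was also the reverse of that of Hpgds. The part of these cells in the values was not tested.

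**Figure D3:**
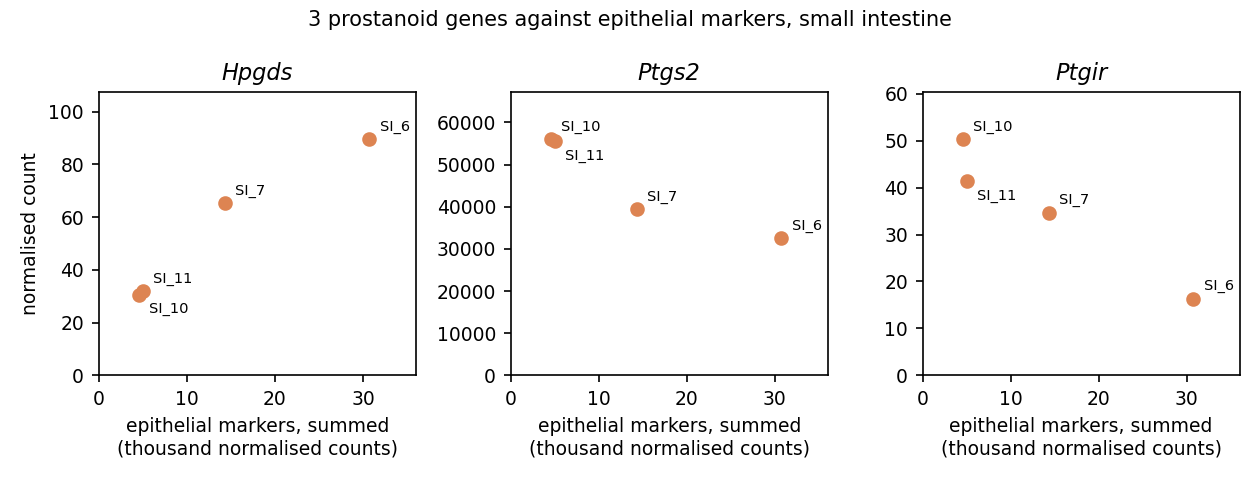
Normalised counts of Hpgds, Ptgs2 and Ptgir (vertical axes) against the summed normalised counts of 10 epithelial markers in units of 1000 (horizontal axes) in the 4 small intestine libraries, each named beside its point. Hpgds is highest in SI_6, which holds the most epithelial marker counts, while Ptgs2 and Ptgir are lowest there.

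Mast cells are a known source of Hpgds. The 10 mast cell and basophil markers, led by Kit and Mcpt8 in bone marrow, summed to 2713 to 3714 in bone marrow and 593 to 1870 in small intestine, with 2 higher (the mast cell proteases Mcpt1 and Tpsab1, at means of 8.77 and 3.38 in small intestine) and 4 lower (Kit, Cpa3, Ms4a2 and Mcpt8). Most of the sum was Kit, and without it the ranges were 216 to 318 and 26.1 to 56.8. Mcpt4 and Tpsab1 were at 0 in every bone marrow library. Tuft cell markers, led by Dclk1 and Sh2d6, summed to 6.90 to 41.8 and 104 to 202 (4 of 6 higher, Il25 at 0 in bone marrow). Ptgds (ENSMUSG00000015090, chr2:25466709-25470046, minus strand), the lipocalin-type prostaglandin D synthase of brain and other tissues, was near the lower limit of detection, with 2, 7, 9 and 5 reads in bone marrow and 1, 0, 4 and 0 in small intestine. The tissues overlapped. The difference was -1.24 ± 0.50 (SE; 95% interval -2.40 to -0.09) and did not pass the test (limma adjusted p = 0.09306). Per kb, Ptges stood 4.18 ± 2.97 times above Hpgds in bone marrow, where BM_5 at 8.62 was far from the others at 2.49 to 3.02. In small intestine the ratio was 0.448 ± 0.241 (SD, n = 4), below 1 in all 4 libraries.

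Of the receptors, 2 rose and 2 fell, and the pair among them that binds prostaglandin E2 went in opposite directions. Ptger2 (ENSMUSG00000037759, chr14:44988195-45003820, plus strand) and Ptger4 (ENSMUSG00000039942, chr15:5206661-5244187, minus strand) encode EP2 and EP4, both of which raise cAMP. Ptger2 had 173, 159, 150.2 and 125 normalised counts in BM_1, BM_3, BM_4 and BM_5, and 57.9, 44.4, 46.0 and 78.2 in SI_6, SI_7, SI_10 and SI_11. All bone marrow libraries were above all small intestine libraries, with means of 152 ± 20.4 and 56.6 ± 15.6 (SD, n = 4), 2.68-fold lower in small intestine. The difference was -1.39 ± 0.23 (SE; limma adjusted p = 0.001832).

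Ptger4 had 201.5, 157, 169 and 181 normalised counts in bone marrow and 297, 318, 396 and 385 in small intestine. The tissues did not overlap, with means of 177 ± 19.1 and 349 ± 49.1 (SD, n = 4). The level was 1.97-fold higher in small intestine and the difference was 0.96 ± 0.19 (SE; limma adjusted p = 0.004545), but this call was lost when each library was centred on the median of all genes (0.06, limma adjusted p = 0.934). The relation of the receptors to each other did not rest on that scaling. Per kb, the ratio of Ptger4 to Ptger2 was 0.909, 0.768, 0.881 and 1.14 in BM_1, BM_3, BM_4 and BM_5, and 4.01, 5.59, 6.73 and 3.85 in SI_6, SI_7, SI_10 and SI_11. EP4 and EP2 transcripts were thus near parity in bone marrow, at 0.924 ± 0.154, while EP4 prevailed in small intestine, at 5.05 ± 1.37 (SD, n = 4).

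Ptgir (ENSMUSG00000043017, chr7:16906490-16910905, plus strand) encodes IP, the prostacyclin receptor, which also raises cAMP. It had 298, 282, 289.9 and 274 normalised counts in bone marrow, a narrow range, and 16.4, 34.7, 50.3 and 41.5 in SI_6, SI_7, SI_10 and SI_11. The means were 286 ± 10.3 and 35.7 ± 14.4 (SD, n = 4), 8.01-fold lower in small intestine, and the difference of -2.97 ± 0.31 (SE; limma adjusted p = 0.0001368) was the strongest fall among the 10 genes. Per kb it came second to Ptgs1 in bone marrow, at 85.8 ± 3.08 against 44.9 ± 2.13 for Tbxas1, although Tbxas1 was above it, at 89.5, when the longest transcript gave the length.

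Ptgdr2 (ENSMUSG00000034117, chr19:10937160-10942511, plus strand) encodes CRTH2, the receptor through which prostaglandin D2 attracts eosinophils, basophils and type 2 lymphocytes. The bone marrow libraries held 0, 4, 0 and 1 reads of it, and the small intestine libraries 179, 160, 221 and 219. Normalised counts in small intestine were 195, 222, 242 and 259.6, a mean of 229.7 ± 27.6 (SD, n = 4), against 0.885 ± 1.23 in bone marrow. The ratio of the means was 259.6, which rests on 5 bone marrow reads in all. The difference was 6.28 ± 0.38 (SE; limma adjusted p = 7.347e-06). Of the 6 eosinophil markers 4 were higher in small intestine, among them Ccr3 and Il5ra (means of 11.0 and 1107), and Epx and Prg2 were lower. In the mast cell and basophil list 2 genes were higher and 4 lower. The lower ones included Mcpt8 (means of 108.6 and 2.46) and Ms4a2 (95.8 and 4.24). Some T cells and innate lymphoid cells carry CRTH2 as well. Their 6 markers, led by Il7r and Thy1 in bone marrow, summed to 41.1 to 72.5 in bone marrow and 39.1 to 70.7 in small intestine. Cd3e was higher in small intestine, from a mean of 7.50 to 20.65 normalised counts, and Il7r was lower, from 23.4 to 9.31. The other 4 did not pass the test, and none was at 0. The part of these cells in the Ptgdr2 values was not tested.

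Some exons of these genes overlap a gene on the opposite strand, and whether reads were counted by strand is not given in the sources used here. Ccdc86 shares 1031 bases of exon with Ptgdr2, and the bone marrow libraries held 153 to 284 reads of Ccdc86 while Ptgdr2 had 0 to 4. Ccdc86 was also higher in small intestine, with 345 to 487 reads and a difference of 1.39 ± 0.20 (SE; limma adjusted p = 0.0008495). Gm43621 shares 148 bases with Ptgs1 and went from 398.5 ± 65.3 normalised counts in bone marrow down to 36.1 ± 10.7. Gm42962 shares 144 bases with Tbxas1 and had 44.9 ± 9.65 and 289.6 ± 31.9 (SD, n = 4), and Gm17173 shares 246 bases with Ptger2 and had 154 ± 15.7 and 29.7 ± 11.1. Ttc33 and Gm15937 overlap Ptger4 by 82 and 1015 bases, and Gm15937 had at most 10 reads. Each of these values may hold reads of its partner.

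Taken as shares of the summed reads per kb of the 10 genes, each tissue was dominated by a single cyclooxygenase. In bone marrow Ptgs1 held 79.2 ± 0.375% (SD, n = 4), followed by Ptgir at 8.48%, Tbxas1 at 4.44%, Ptger2 at 2.88% and Ptger4 at 2.63%, while Ptgs2 held 0.480%. In small intestine Ptgs2 held 90.0 ± 1.83%, followed by Tbxas1 at 6.19 ± 1.02% and Ptgs1 at 2.19 ± 0.640%, and Ptgdr2 held 0.801%. Of the 4 terminal synthases among the 10 genes, thromboxane synthase was the most abundant per kb in both tissues. It stood at 44.9 ± 2.13 reads per kb in bone marrow and 672 ± 109 in small intestine. When the longest transcript gave the length, Tbxas1 stood at 1339 reads per kb in small intestine, its share was 11.2% there, and that of Ptgs2 was 84.2%. Of the 4, Ptges came next in bone marrow, at 11.9 ± 2.35 against 3.52 ± 1.36 for Hpgds. Hpgds came next in small intestine, at 8.46 ± 4.42 against 3.09 ± 0.742 for Ptges. The ranking does not cover the 7 other prostanoid synthases described below. Among those, Ptges3 and Akr1b3 were above Tbxas1 in bone marrow, at means of 331.5 and 69.6 reads per kb. In small intestine both were below Tbxas1, at 265.3 and 37.7. The rest of the 7 were below Tbxas1 in both tissues.

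**Figure D4:**
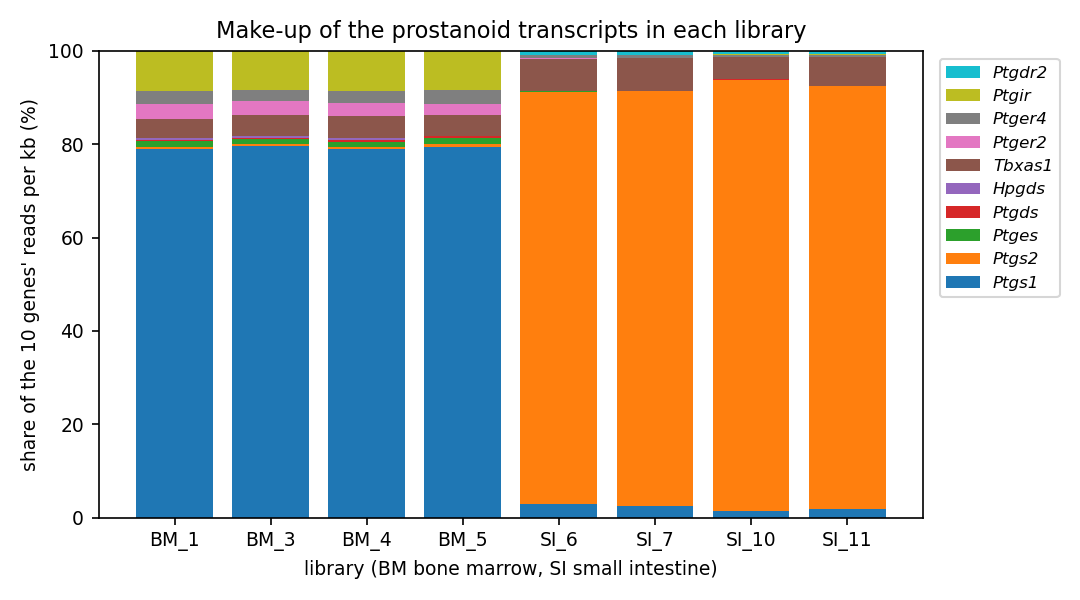
Share of each gene in the summed normalised reads per kb of the 10 prostanoid genes (vertical axis, percent) in each of the 8 libraries (horizontal axis). Ptgs1 fills most of every bone marrow bar and Ptgs2 most of every small intestine bar.

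The genes nearest to Ptgs1, Ptgs2 and Tbxas1 were found by Euclidean distance over the 8 libraries, among 12871 protein-coding genes averaging 10 reads or more, with each gene's deposited values centred. Distance 0 is an identical profile, and because the tissues differ so much a small distance says mainly that the tissue difference is alike. Nearest to Ptgs2 were Cxcl2 (0.539), Rgs1 (0.544) and Cxcl3 (0.716), of which Cxcl2 and Cxcl3 encode neutrophil-attracting chemokines. Nearest to Tbxas1 were Cd300a (0.202), an inhibitory leukocyte receptor, Lpcat2 (0.229), which makes platelet-activating factor, and Gramd1a (0.229). Ptgs1 was nearest to Tmem165 (0.171), Usp39 (0.171) and Bace1 (0.192).

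Of 30 further genes of the pathway, 9 were higher in small intestine, 7 were lower and 14 did not pass the test, with a median difference of 0.72. The called share of 53.3% lay between the 34.9% of all genes and the 63.1% of genes averaging 10 reads or more. Among 9 phospholipases A2, which free arachidonic acid, 3 rose and 1 fell. Pla2g4a, the cytosolic phospholipase A2 that prefers arachidonic acid, went from 805 ± 34.7 to 4622 ± 845 normalised counts (SD, n = 4), a difference of 2.50 ± 0.20 (SE; limma adjusted p = 3.485e-05). The secreted enzymes Pla2g2d and Pla2g3 rose from 2.72 ± 2.13 to 136 ± 25.9 and from 22.7 ± 14.8 to 532 ± 111, by 4.81 ± 0.45 and 4.54 ± 0.45 (SE), while Pla2g12a fell from 111 ± 27.9 to 25.5 ± 9.37, a difference of -2.00 ± 0.28 (SE). The genes that return arachidonic acid to membranes rose in 3 of 3 cases. They were led by Acsl4, which couples it to coenzyme A and went from 569.6 ± 113 to 3105 ± 677, a difference of 2.43 ± 0.26 (SE; limma adjusted p = 0.0001426). The other two, Lpcat3 and Mboat7, lost their calls when each library was centred on the median of all genes.

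Among 6 genes of transport and breakdown, 1 rose and 4 fell. Slco2a1, the transporter that takes prostaglandins up for breakdown, went from 3.98 ± 6.08 to 253 ± 66.9 normalised counts, a difference of 5.66 ± 0.59 (SE; limma adjusted p = 0.0001435). Abcc4, which exports prostaglandins among other anions, fell from 2114 ± 151 to 367 ± 14.9, with a difference of -2.51 ± 0.17 (SE; limma adjusted p = 1.22e-05). Ptgr1, which reduces keto-prostaglandins and leukotriene B4, fell from 1872 ± 264 to 93.6 ± 54.1, with a difference of -4.41 ± 0.36 (SE; limma adjusted p = 3.479e-05). The reductases Ptgr2 and Zadh2 also fell and Hpgd, the enzyme that starts prostaglandin breakdown, did not pass the test. The genes of smaller differences are named here after their values were seen.

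Of 7 other prostanoid synthases, Cbr1 rose, Ptges2 and Akr1b3 fell and 4 did not pass the test. For Ptges2 the libraries of the tissues overlapped (limma adjusted p = 0.04205). Ptges3, which did not pass, was called lower under the centring on all genes (limma adjusted p = 0.02825). By limma voom on the recovered reads, Ptges3 was called lower (adjusted p = 0.04865) and Ptgis, which did not pass either, higher (adjusted p = 0.0344). Cbr1 lost its call under the centring on all genes. Of 5 other receptors, Ptger3, the EP3 receptor, rose (1.31 ± 0.34, SE; limma adjusted p = 0.01664), also not under that centring nor under quantile normalisation. Ptger1, the EP1 receptor, had 823 ± 40.4 bone marrow and 806 ± 76.5 small intestinal normalised counts, a difference of -0.03 with a 95% interval of -0.43 to 0.36. Tbxa2r, the receptor for the product of Tbxas1, had 0 reads in every bone marrow library, where a count of 0 allows up to 3 reads, and 4 reads over the small intestine libraries.

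**Figure D5:**
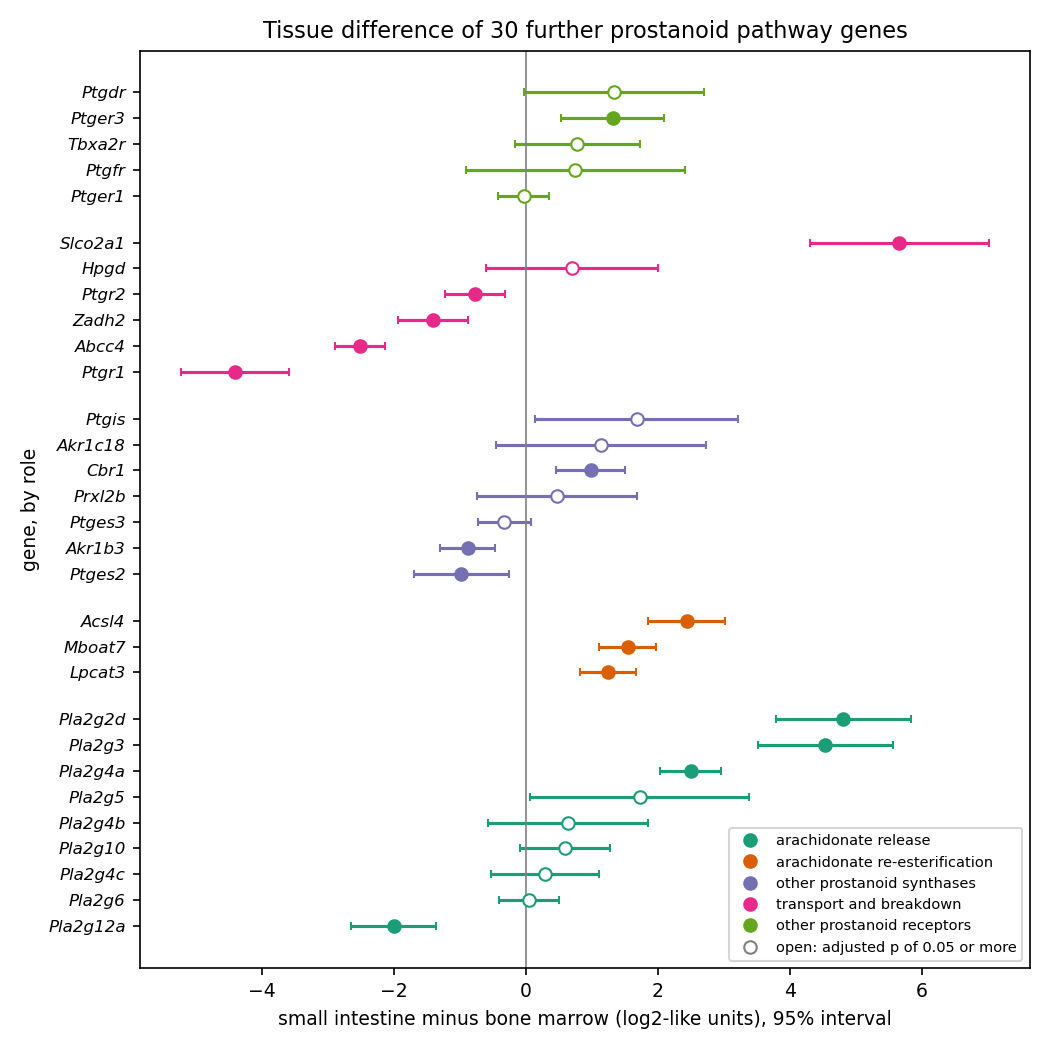
Difference of the deposited value, small intestine minus bone marrow (horizontal axis, log2-like units), with its 95% interval for 30 further pathway genes (vertical axis), coloured by role. Filled points passed an adjusted p of 0.05; all 3 re-esterification genes lie above 0, and 4 of the 6 genes of transport and breakdown lie below it.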

How the data were processed

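RNA from sorted eosinophils was amplified and sequenced as single-end reads, aligned to GRCm38 and counted over Ensembl genes; the aligner settings, strand and treatment of reads with several matches were not given in the sources used here. The authors deposited variance-stabilised values from DESeq2, which are on a log2 scale and normalised by size factor (R 4.0.3 per the labels). Whole reads were recovered from these values by inverting the transformation (100.0% of genes within 0.05 of a whole number in every library) and divided by the size factors to give normalised counts, and by exon length in GENCODE M21 to give reads per kb. Columns were assigned to tissues by their names. Differences were tested with limma 3.58.1 (R 4.3.3, two-sided) on the deposited values of all 38392 genes and 8 libraries, with no covariate, in place of the count model the authors used. The procedure was also run on simulated reads, with far fewer changed genes than were called here and with small folds. That run therefore does not cover differences as widespread or as large as these. The prostanoid genes and all lists were chosen with earlier results of these data known. Named were all 10 genes, pathway genes called with an absolute difference of at least 2, 2 leading genes per marker list besides Siglecf, Ccr3, Epx and Prg2, and 3 nearest genes for members named for likeness. Alternatives were the scale of the test, the scaling between libraries, a filter on low counts, the prior, leaving out libraries and transcript length. Intervals cover the spread between libraries or counting error only, since reads without molecular identifiers are not independent molecules.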

Additional observations from a re-analysis of the deposited data

Results flagged for a closer look

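In 36 groups of 4 libraries (18 genes in each tissue), 2 had a library far from the others, where chance alone gives about 1 in 20. Pla2g4a in small intestine was lowest in SI_6, whose gap to the nearest library took up 0.893 of the whole range. Acsl4 in bone marrow was lowest in BM_4, with a gap of 0.990 of the range. None of the 10 prostanoid genes had such a library in either tissue.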

How the results depend on the processing

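The differences of the 10 prostanoid genes were recomputed under 16 other settings, 159 values in all. Of these, 153 kept their direction and their side of the threshold, 1 lost its call and 0 reversed. The lost call was Ptger4, centred on the median of all genes (0.06). The 5 gained calls were Ptgds with that centring (-2.14), with quantile normalisation (-2.00) and without SI_10 (-1.66), and Hpgds with the filter (limma adjusted p = 0.04) or a trended robust prior (limma adjusted p = 0.0214). Without BM_5, SI_6 and SI_7, chosen after seeing the data, the other 8 genes were still called and Ptgds and Hpgds were not. With 1 library left out, 8 to 9 of the 10 genes were called. Of the 30 further pathway genes, 5 were called higher with centring on the median of all genes, against 9. That centring moved the median difference of all genes from 0.37 to -0.53 and the calls from 8465 higher and 4937 lower to 4285 and 10216; quantile normalisation gave 5954 and 7032. With the length of the longest transcript, the bone marrow ratio was 0.004605 for Ptgs2 to Ptgs1 and 1.155 for Ptger4 to Ptger2, and the latter crossed 1. By Pearson correlation, 0 of the 3 nearest genes stayed for Ptgs1 and Tbxas1. Depth limits Ptgds and the bone marrow level of Ptgdr2. No paired analysis was possible because the library numbers of the tissues are not shared.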
